A study of Mus musculus with 24 samples.

Results

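The interferon response genes described here are 44 genes that cells switch on when interferon binds its receptor, or that help to start and to limit that response. They were chosen by symbol, and all 44 were found among the 24411 genes listed in each deposited table. Type I interferons act through the factor ISGF3, which includes STAT2 and IRF9 and binds interferon-stimulated response elements in promoters. The induced proteins destroy or trap viral RNA, sense foreign nucleic acids, and brake the signal. In the brain, microglia and endothelial cells respond strongly, and interferon-responsive microglia are known from ageing tissue.

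The study asked how components of young blood change the aged brain. Aged male C57/Bl6 mice, 20 months old, received 8 intravenous injections of 100 µl over 24 days of saline, of plasma from 3-month-old mice, or of the platelet fraction of such plasma, and whole hippocampus was sequenced from 5, 6 and 6 mice. In the other experiment, aged mice received saline or platelet factor 4 (PF4), a chemokine that platelets release, given as recombinant mouse protein at 5 µg per ml. Microglia were then taken from their hippocampi with CD11b microbeads after removal of myelin and sequenced as 3 saline and 4 PF4 libraries. All mice were aged and perfused with buffered saline, and no untreated or young recipient was sequenced. Differences are against aged mice given saline unless another comparison is named. The microglia replicates are counted as mice, so each library is taken as a single animal.

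Reads counted per hippocampal library ran from 6140510 to 10522699 after saline, with a median of 8629386. They ran from 6586357 to 7739868 after young plasma and from 6763608 to 7438930 after the young platelet fraction. Saline mice 7146, 7143 and 7152 thus had more reads than any treated mouse. The part of depth in the member values was not tested. Microglia libraries held between 19855188 and 36342162 reads. The microglia markers P2ry12 and Tmem119 stood at means of 1768 and 5757 CPM (reads per 1000000 counted) in the saline microglia, against 46.0 and 84.3 in saline hippocampus. The microglia thus held their defining markers. The 8 oligodendrocyte markers were all higher at an unadjusted P under 0.05 in both treated hippocampal groups, with a median log2 fold change of 0.52 in the plasma comparison and 0.60 in the platelet comparison. The 8 ependyma markers were all positive in both, with medians of 0.57 and 0.78, and 2 and 3 of them passed. After the platelet fraction 1 of 2 red cell markers tested was higher, their sums running from 136 to 961 normalized counts against 85.0 to 174 after saline, and 2 of 14 microglia markers and 1 of 7 astrocyte markers were lower. After young plasma 1 of 8 neuron markers was lower. Over all genes tested 1.85% were higher and 1.51% lower after young plasma, and 2.41% and 1.46% after the platelet fraction. Lists with 1 or 2 calls are too short to show a shift in cell content. The part of these cell markers in the member values was not tested. Choroid plexus markers summed from 1130 to 48866 normalized counts across the hippocampi of the plasma table, and from 685 to 537058 across the microglia libraries. Bulk hippocampus holds many cell types, so more cells of a type and more RNA per cell cannot be told apart in any value below.

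Several of the promoters carry the motif through which ISGF3 acts. RefSeq promoter windows on build GRCm38.p6, from 250 bases before to 50 after the transcription start, were matched for 34 of the 44 genes. The core GAAANNGAAA, searched on both strands, was present in 18 of those 34 windows (52.9%), against 3.99% of the windows of all 27025 genes. It was found for the factor gene Stat2, for Ifit1, Ifit3, Oas1a, Rsad2, Eif2ak2, Bst2, Ifitm2 and Ifitm3, for the sensors Ifih1 and Ddx58, for Isg15 and Trim30a, and for Gbp2, Gbp3, Gbp7, Igtp and Irgm1. The windows of Irf7 and Xaf1 did not hold the GAAANNGAAA letters. A match describes letters, not a bound site.

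These 5 stretches follow, chosen because values of these genes are given below. Each runs from 170 bases before to 10 after the start, 5′ to 3′ on the strand of the gene, with every match to GAAANNGAAA or its reverse complement in capitals. They lie at chr19:34583359-34583538 (plus strand, Ifit3), chr19:34640719-34640898 (plus, Ifit1), chr11:48871411-48871590 (minus, Irgm1), chr3:142559874-142560053 (plus, Gbp3) and chr3:142530166-142530345 (plus, Gbp7).
Ifit3: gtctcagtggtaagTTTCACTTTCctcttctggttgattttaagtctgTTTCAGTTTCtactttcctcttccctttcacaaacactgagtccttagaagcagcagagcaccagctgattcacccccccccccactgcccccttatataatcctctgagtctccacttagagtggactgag
Ifit1: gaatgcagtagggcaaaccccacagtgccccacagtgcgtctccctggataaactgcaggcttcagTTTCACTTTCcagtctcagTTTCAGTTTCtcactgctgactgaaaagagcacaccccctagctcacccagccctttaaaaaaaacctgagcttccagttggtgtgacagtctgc
Irgm1: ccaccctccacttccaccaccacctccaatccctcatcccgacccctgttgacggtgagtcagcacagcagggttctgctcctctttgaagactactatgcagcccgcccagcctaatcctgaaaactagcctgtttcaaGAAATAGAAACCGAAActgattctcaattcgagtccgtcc
Gbp3: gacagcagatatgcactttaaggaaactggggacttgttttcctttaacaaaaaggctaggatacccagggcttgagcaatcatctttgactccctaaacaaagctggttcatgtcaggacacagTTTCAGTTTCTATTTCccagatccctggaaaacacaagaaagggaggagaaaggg
Gbp7: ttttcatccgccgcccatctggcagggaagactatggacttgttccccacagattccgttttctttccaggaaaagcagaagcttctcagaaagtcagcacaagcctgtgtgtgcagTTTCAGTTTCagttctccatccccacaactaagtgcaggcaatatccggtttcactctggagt

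Ifit3 and Ifit1 each held 2 separate matches, which began 156 and 122 bases before the start in Ifit3 and 104 and 85 in Ifit1. In Irgm1 the 2 matches overlapped and began 30 and 24 bases before the start, and in Gbp3 they began 45 and 39 before it. Gbp7 held 1 match, 53 bases before the start. Many members are neighbours in the genome. Ifit2, Ifit3 and Ifit1 lie between 34550550 and 34650009 on chromosome 19, and Gbp7, Gbp3 and Gbp2 between 142530336 and 142638008 on chromosome 3. Rsad2 and Cmpk2 adjoin on chromosome 12, and Parp9 overlaps Dtx3l on chromosome 16. Reads of such paralogs and overlapping genes may be shared between them, so the values of Ifit3, Oas1a, Ifitm2, Ifitm3, the Gbp genes, Parp9 and Dtx3l carry that uncertainty. RefSeq lists Mx1 and Mx2 of this strain as transcribed pseudogenes.

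In the hippocampus, young plasma was given to test whether the blood of young mice changes the aged tissue. After young plasma 4 interferon response genes were higher than after saline, and none was lower. These were Ifit3 and Ifit1, antiviral effectors of the IFIT family, Irf7, the transcription factor that amplifies the type I response, and Xaf1, an interferon-induced promoter of cell death. Of the 44 genes, 36 reached a normalized count (reads over a size factor per library) of 10 in at least 5 libraries and were tested. With limma on log2(normalized count + 1) at an unadjusted P under 0.05, 4 of 36 rose, where 1.85% of all 13594 genes tested rose, and 0 fell, where 1.51% of all genes fell. Positive log2 fold changes were found for 26 of the 36, against 47.3% of all genes, and their median was 0.14, against -0.01 over all genes. After Benjamini-Hochberg adjustment no gene, member or other, passed, and the smallest limma adjusted p of a member was 0.9997. Nor did edgeR or DESeq2 give any member an adjusted p under 0.05, here or in the comparisons that follow.

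Ifit3 stood at 146, 120, 160, 185 and 195 normalized counts in the 5 saline hippocampi. In the 6 young plasma hippocampi its lowest, median and highest values were 147, 224 and 388. Of the treated mice, 5 of 6 lay above every saline mouse, but the groups overlapped, since the lowest treated value fell among the saline ones. The log2 fold change was 0.55 ± 0.21 (SE), with a limma P of 0.0229 and an exact two-sided permutation P of 0.039.

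Xaf1 was at 40.7, 23.5, 30.8, 25.6 and 33.8 normalized counts in the saline mice, and between 34.0 and 76.0 with a median of 43.4 after young plasma. Of the treated mice, 4 lay above all saline mice. The log2 fold change was 0.57 ± 0.22 (SE), with a limma P of 0.0240 and an exact permutation P of 0.0216. Irf7 was at 35.8, 29.1, 44.0, 47.8 and 27.8 in the saline mice, and between 33.0 and 93.0 with a median of 59.8 after young plasma. Of the treated mice, 3 lay above every saline mouse, at 72.0, 87.7 and 93.0, and the other 3 lay within the saline range. The log2 fold change of Irf7 was 0.69 ± 0.28 (SE), with a limma P of 0.0288, but the exact permutation P was 0.0584. Ifit1 was at 29.3, 36.0, 60.8, 48.9 and 33.8 in the saline mice, and between 36.7 and 130.0 with a median of 65.7 after young plasma. Its log2 fold change was 0.66 ± 0.30 (SE), with a limma P of 0.0466 and an exact permutation P of 0.0758. Leaving out single mice changed these calls. Without saline mouse 7146 there were 0, without young plasma mouse 7150 only Ifit3 was left, and without saline mouse 7596 or young plasma mouse 7144 or 7147 the 2 calls of Ifit3 and Xaf1 were left. Ifit1 was also lost without saline mouse 7143 or young plasma mouse 7594, the latter adding Rtp4. Without saline mouse 7155 Xaf1 was lost and Usp18 and Ifitm3 were added, and without young plasma mouse 7159 there were 7 calls, with Gbp2, Usp18 and Rtp4 added. Without 5 hippocampi that earlier results had set apart, named with the other settings, 0 members rose and their median log2 fold change was -0.01. The saline mice left out, 7146 and 7152, had the lowest mean log2 deviations of the members in their group, -0.19 and -0.30. The young plasma mice left out, 7147 and 7150, had the highest in theirs, 0.21 and 0.48. That fit is therefore not a separate check of the calls.

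**Figure D1:**
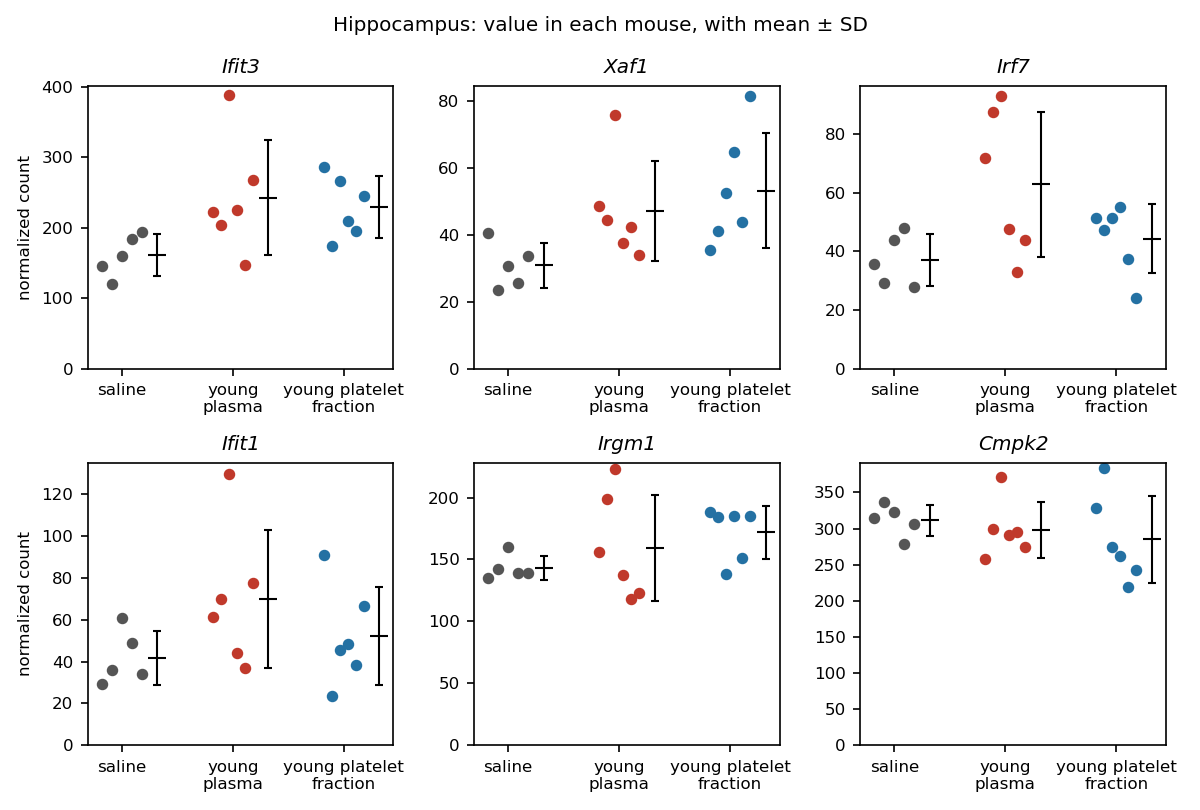
Normalized counts (vertical axes, linear, starting at 0) of the 5 members that passed the test in either hippocampal comparison and of Cmpk2, which did not. Each point is 1 mouse of the saline (n = 5), young plasma (n = 6) or young platelet fraction (n = 6) group, and the black mark beside each group is the mean ± SD. Treated points overlap saline points in every panel, and young plasma mouse 7150 is the highest Ifit3 point at 388.

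Hippocampi of mice given the young platelet fraction were sequenced to ask which part of young plasma acts. After it, Ifit3, Xaf1 and Irgm1, an interferon-gamma-inducible GTPase of the autophagy and pathogen-vacuole pathway, were higher than after saline, and no member was lower. Here 37 members were tested, Oas2 being added. Of these 3 rose, where 2.41% of all 13603 genes tested rose, and 0 fell, where 1.46% fell. Log2 fold changes were positive for 27 of the 37, against 50.5% of all genes, with a median of 0.15 against 0.00 over all genes. The smallest limma adjusted p of a member was 0.998. This comparison uses the same 5 saline mice as the one above, so the repeated appearance of Ifit3 and Xaf1 is not independent.

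Ifit3 ran from 174 to 287 normalized counts after the young platelet fraction, with a median of 228, against 121 to 196 in the saline mice of that table. Of the treated mice, 4 of 6 lay above every saline mouse and none below. The log2 fold change was 0.50 ± 0.16 (SE), with a limma P of 0.00756 and an exact permutation P of 0.0195. Xaf1 ran from 35.6 to 81.7 with a median of 48.2, against 23.6 to 40.9, and 5 of 6 treated mice lay above every saline mouse. Its log2 fold change was 0.73 ± 0.23 (SE), with a limma P of 0.00759 and an exact permutation P of 0.0108. Both calls were kept in all of the fits that left out 1 mouse. Irgm1 ran from 138 to 188 with a median of 184, against 136 to 161, for a log2 fold change of 0.25 ± 0.11 (SE), a limma P of 0.0493 and an exact permutation P of 0.039. The Irgm1 call was lost when saline mouse 7143, 7146, 7155 or 7596, or young platelet fraction mouse 7145, 7148, 7154 or 7595, was left out, and with TMM scaling, a pseudocount of 5, no filter, or all 3 groups in 1 fit.

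**Figure D2:**
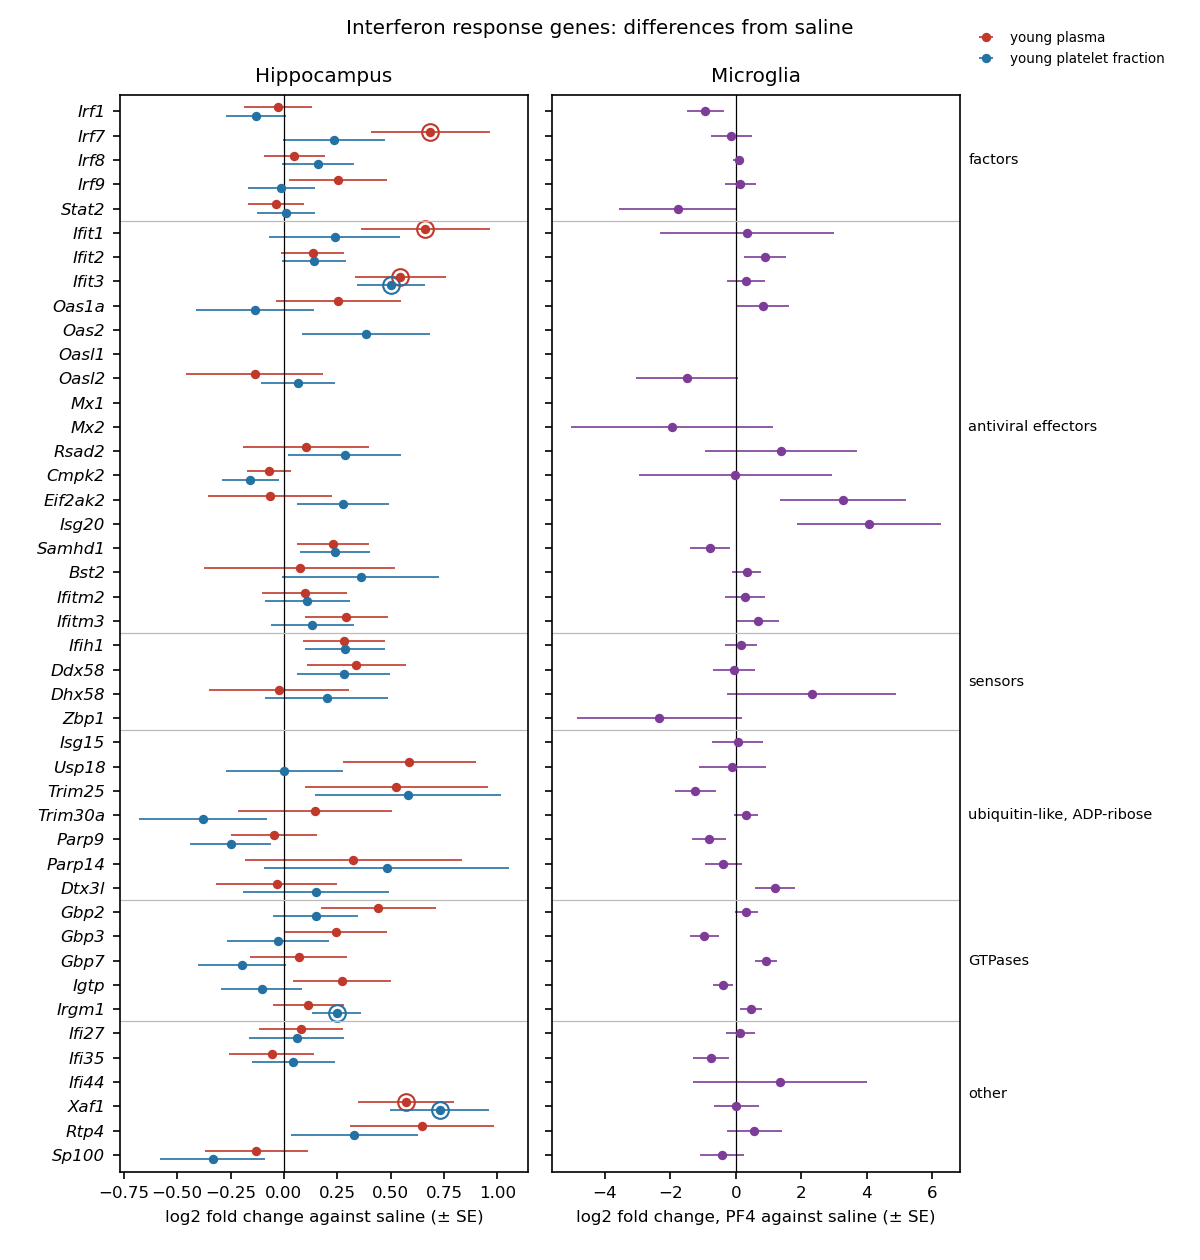
Log2 fold change against saline (horizontal axes, bars ± SE) of each interferon response gene tested, grouped by role. The left panel gives hippocampus after young plasma (red) or the young platelet fraction (blue), with rings around the 4 and 3 values at an unadjusted P under 0.05, all of them above 0, and the right panel gives microglia after PF4 on a wider scale, where none passed at 0.01. Rows without a point were too low to test, apart from Oas2 in microglia, which is not drawn because its saline libraries are at 0.

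By role, the signalling genes were mixed. Irf7 had log2 fold changes of 0.69 with young plasma and 0.23 with the platelet fraction. Stat2, the ISGF3 subunit with the highest mean count of this group, was at 143 to 198 normalized counts after saline and 140 to 223 after young plasma, with log2 fold changes of -0.04 ± 0.13 and 0.01 ± 0.14 (SE) after the respective treatments. Irf1, Irf8, a factor of myeloid cells, and Irf9 had log2 fold changes between -0.13 and 0.25. Among the antiviral effectors, 12 of 17 were tested after young plasma and 9 of these 12 were positive, and 13 were tested after the young platelet fraction with 11 positive. Cmpk2, a mitochondrial nucleotide kinase and the most abundant effector by mean count, had negative log2 fold changes that did not pass, -0.07 ± 0.10 and -0.16 ± 0.13 (SE), and ran from 278 to 336 normalized counts after saline, from 257 to 371 after young plasma and from 219 to 383 after the young platelet fraction.

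Of the sensors of viral nucleic acids, 3 of 4 were tested and none passed. Ddx58, which encodes the RNA sensor RIG-I, ran from 30.8 to 74.5 normalized counts after saline and from 49.0 to 90.0 after young plasma, with log2 fold changes of 0.34 ± 0.23 and 0.28 ± 0.22 (SE). Ifih1, which encodes the sensor MDA5, was at 0.28 and 0.29. In the ubiquitin-like and ADP-ribosylation group no gene passed with limma. Usp18, which removes ISG15 from proteins and blocks the receptor, had a log2 fold change of 0.59 ± 0.31 (SE) with young plasma and 0.00 ± 0.27 with the platelet fraction. DESeq2 called it higher after young plasma, at an unadjusted P of 0.0477. Parp9, an ADP-ribosyltransferase partner of the ligase Dtx3l, was at -0.05 ± 0.20 and -0.25 ± 0.19 (SE).

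The GTPases, which take part in defence against pathogens in vacuoles, had 5 of 5 positive log2 fold changes after young plasma, from 0.07 to 0.44. After the young platelet fraction 2 of 5 were positive. Igtp ran from 67.8 to 88.6 normalized counts after saline and from 65.9 to 177 after young plasma, with log2 fold changes of 0.27 ± 0.23 and -0.10 ± 0.19 (SE) after the respective treatments. Ifi27, an interferon-induced membrane protein of mitochondria and the nuclear envelope, had the highest mean count of all members, from 456 to 953 after saline, and log2 fold changes of 0.08 ± 0.20 and 0.06 ± 0.22 (SE). After young plasma 8 members were not tested: Oas2, Oasl1, Mx1, Mx2, Isg20, Zbp1, Isg15 and Ifi44. In the hippocampi of that table these ran from 0 to 20.0 normalized counts, and Isg15, the ubiquitin-like modifier itself, from 1.11 to 12.0. All but Oas2 were also not tested after the young platelet fraction.

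Young plasma and the young platelet fraction were also set against each other, after the tables were put on one scale through the saline libraries they share. Among 37 members tested, 0 were higher and 0 lower at an unadjusted P under 0.05 (all genes, 0.869% higher and 1.03% lower), and edgeR and DESeq2 each called 1 member, Usp18, lower after the young platelet fraction. The median log2 difference, platelet fraction minus plasma, was -0.02. In the limma fit Usp18 had the smallest P, 0.0717, with a log2 difference of -0.58 ± 0.30 (SE). Ifit3 differed by -0.05 and Xaf1 by 0.16 on the log2 scale, with exact permutation P of 0.846 and 0.526. An unpassed test does not show that the treatments act alike.

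Members also varied between mice of the same group. Young plasma mouse 7150 held the highest of the 17 values for 17 of the 37 members kept across all hippocampi (45.9%), where it held the highest value for 8.41% of all 13906 genes kept. These included Ifit1 at 130.0 against 90.5 in the next mouse, Ifit3 at 388 against 285, Oasl2 at 136 against 84.5, Usp18 at 105.0 against 64.4, Igtp at 177 against 123 and Irf9 at 173 against 125. The mean log2 deviation of the 37 members from their own means was 0.48 in that mouse. The other young plasma mice ran from -0.27 in mouse 7159 to 0.21 in mouse 7147. Saline mice ran from -0.30 to 0.19 and young platelet fraction mice from -0.35 to 0.29, so the 3 groups overlapped on this measure. The saline mice with the most reads, 7146, 7143 and 7152, stood at -0.19, -0.16 and -0.30. Saline mice 7155 and 7596, with fewer reads, stood at 0.19 and -0.12. The part of depth in these values was not tested. In mouse 7150 the GTPases deviated most, by 0.83, followed by the antiviral effectors at 0.56, while the sensors stood at -0.05. The same mouse had the highest summed microglia markers of its table, 10298 normalized counts against 7124 to 9882 in the others, and the highest summed oligodendrocyte markers, 114362 against 39702 to 92551. Their part in the member values was not tested.

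**Figure D3:**
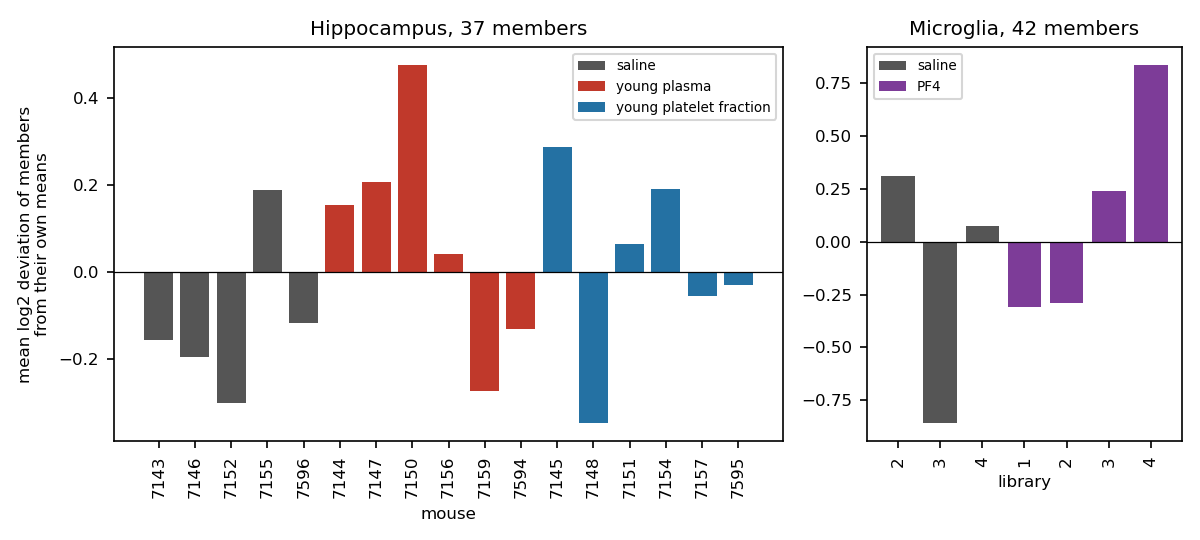
Mean log2 deviation of the members from their own means (vertical axes) in each of 17 hippocampi (left, 37 members) and each of 7 microglia libraries (right, 42 members). Young plasma mouse 7150 stands highest on the left at 0.48, and on the right the bars run from -0.86 in saline library 3 to 0.84 in PF4 library 4.

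Beyond the 44 genes, 102 further genes of the interferon pathway were listed in the tables. After young plasma 69 of them were tested, of which 2 rose and 1 fell, near the 1.85% and 1.51% of all genes. Tgtp1 and Irgm2, both interferon-gamma-inducible GTPases, rose by 1.16 ± 0.52 and 0.55 ± 0.23 (SE) on the log2 scale, with limma P of 0.0437 and 0.0357. Tbk1, the kinase that activates IRF3 and IRF7, fell by 0.23 ± 0.09 (SE), with a limma P of 0.0251. After the young platelet fraction 68 were tested, of which 1 rose and 1 fell, where 2.41% and 1.46% of all genes did. Apobec3, a cytidine deaminase that restricts retroviruses, had a log2 fold change of 0.45 ± 0.20 (SE) and Daxx, a nuclear repressor, -0.24 ± 0.10 (SE), with limma P of 0.0400 and 0.0292. Between the treated groups Tbk1 was higher after the young platelet fraction by 0.23 ± 0.09 (SE) on the log2 scale, with a limma P of 0.0211. It was the 1 of 70 that passed, where 0.869% of all genes were higher and 1.03% lower. Both Tbk1 results use the same young plasma mice and are not independent. None of the 9 interferon ligand genes listed reached the level for a test in hippocampus. The receptors and kinases gave 0 passes of 11 tested in each of these comparisons.

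The isolated microglia held most of these genes at higher levels than whole hippocampus. Mean CPM values were higher in saline microglia than in saline hippocampus for 42 of the 44 genes, against 30.1% of all genes kept in hippocampus. The median ratio was 5.15, against 0.475 over all genes kept in hippocampus. These member figures include genes too low to be kept in hippocampus, which the figures over all genes leave out, so the sets are not alike. Every saline microglia library lay above every saline hippocampus for 27 members, 16 overlapped, and 1, Oas2, lay below with 0 reads in the saline microglia. Of the 37 members kept in hippocampus 25 lay wholly above and 1 wholly below, against 14.3% and 49.9% of all 13906 genes kept. These are separate preparations and experiments, so the values are a description with no test. The steepest difference among well-counted members was in Irf8, at 786 ± 101 CPM (SD, n = 3) in microglia and 12.4 ± 1.69 (SD, n = 5) in hippocampus. Irf1, the interferon-gamma-induced factor, followed at 486 ± 182 against 20.5 ± 2.04. Cmpk2 was the other exception, at 18.0 ± 20.3 CPM in microglia against 42.2 ± 2.78, and the microglia libraries ran from 0 to 40.0.

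Per kilobase of merged exon, so that genes can be compared, Ifi27 was the highest member in saline hippocampus at 69.3 CPM per kb, followed by Ifitm3 at 35.0, Ifitm2 at 18.7 and Ifit3 at 12.5. In saline microglia Ifitm3, which blocks fusion of viruses with endosomes, led at 140 CPM per kb. Irf1 at 122, Ifi27 at 114, Irf8 at 111 and Bst2, the surface protein that tethers virions, at 91.7 came next. Their per-library spread in CPM overlaps widely, Ifitm3 running from 30.7 to 213 over the 3 saline microglia libraries, so the order of these 5 is not resolved.

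**Figure D4:**
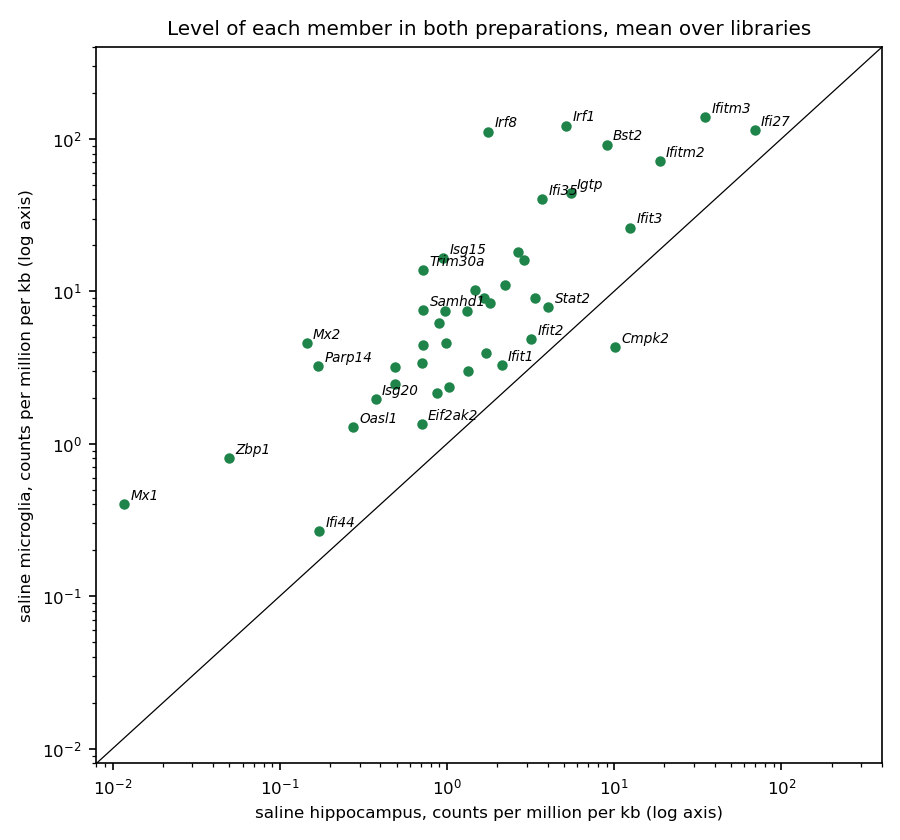
Mean CPM per kb of merged exon for each member in saline hippocampus (horizontal, n = 5) and saline microglia (vertical, n = 3), both on log axes, with the line of equal level. Nearly all points lie above the line, Irf8 among the farthest from it, and Cmpk2 lies below; Oas2, at 0 in the saline microglia, is not drawn, and not every point is named.

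In microglia, PF4 was given to ask whether this single platelet factor acts on the immune cells of the brain. With limma, no interferon response gene passed at an unadjusted P under 0.01. That cut-off was taken from the study, which applied it to DESeq2 tests, so the limma result is not a like-for-like use of it. The limma fit called 0.389% of all genes tested in either direction, so few genes of any kind passed. Among 42 members tested, 0 rose and 0 fell, where 0.221% of all 11320 genes rose and 0.168% fell. At an unadjusted P under 0.05 there were 2, Gbp7 and Oas2, both higher, where 2.37% of all genes were higher and 1.09% lower. With the other tools edgeR called 0 members at 0.01, and DESeq2 called 1, Oas2. The smallest limma adjusted p of a member was 0.982. Log2 fold changes were positive for 25 and negative for 17, with a median of 0.14 against 0.03 over all genes, but the median was 0.53 without saline library 2 and -0.15 without saline library 3. With 3 against 4 libraries the exact permutation test cannot give a P below 0.0286.

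Of the 42 members tested, groups did not overlap for 1 that was higher and 2 that were lower. Both counts were near the shares of all genes given below. These 3 members are named here because of their values. Gbp7 was at 1208, 796 and 1876 normalized counts in the saline libraries and at 2093, 2390, 2247 and 2462 in the PF4 libraries. All 4 PF4 libraries lay above all saline ones, as in 2.39% of all genes, and the log2 fold change was 0.91 ± 0.34 (SE) with a limma P of 0.0221 and an exact permutation P of 0.0286. Its neighbour Gbp3 went the other way, at 1192, 1612 and 1200 against 964, 443, 936 and 527. The log2 fold change was -0.96 ± 0.44 (SE), with a limma P of 0.0528 and an exact permutation P of 0.0857. Trim25, the ligase that activates RIG-I, was at 685, 718 and 538 against 170, 247, 300 and 439. Its log2 fold change was -1.23 ± 0.63 (SE), with a limma P of 0.0812 and an exact permutation P of 0.0571. All PF4 libraries lay below all saline ones for these last 2, as in 2.23% of all genes.

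Several other members varied widely between libraries of the same group. Oas2, which makes the activator of RNase L, had 0 reads in all 3 saline libraries and in PF4 library 1, and 160, 147 and 442 reads in PF4 libraries 2, 3 and 4. A count of 0 allows up to 3 reads, and no fold is given against a group at 0. Stat2 was at 694, 2086 and 807 normalized counts after saline and at 1654, 3.86, 1225 and 910 after PF4, so 1 PF4 library stood far below the rest. Cmpk2 was at 987, 0 and 361 against 847, 312, 90.7 and 0, and Ifit1 at 579, 1.23 and 70.0 against 319, 288, 0 and 115. Irf1 was at 6939, 14136 and 16398 after saline and at 2420, 4205, 12557 and 11346 after PF4, with a log2 fold change of -0.92 ± 0.56 (SE). Irf8 was even across libraries, from 17183 to 23245 after saline and from 18287 to 23903 after PF4.

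The members that had passed in hippocampus did not pass in microglia. Ifit3 was at 1601, 1166 and 699 normalized counts after saline and at 2746, 508, 1134 and 2127 after PF4, with a log2 fold change of 0.31 ± 0.59 (SE). Xaf1 was at 1538, 270 and 354 against 662, 502, 611 and 394, with a log2 fold change of 0.01 ± 0.69 (SE). Irf7 was at 1290, 353 and 468 against 687, 664, 279 and 690, and Irgm1 at 917, 1711 and 1436 against 2023, 1415, 1746 and 2228, with log2 fold changes of -0.13 ± 0.64 and 0.48 ± 0.33 (SE). Saline library 2 was the highest of the 3 saline libraries for Ifit1, Ifit3, Irf7 and Xaf1 and, over all 42 members, the highest of 7 for 14 (33.3%, against 20.0% of all genes). PF4 library 4 was the highest for 13 (31.0%, against 13.2% of all genes).

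**Figure D5:**
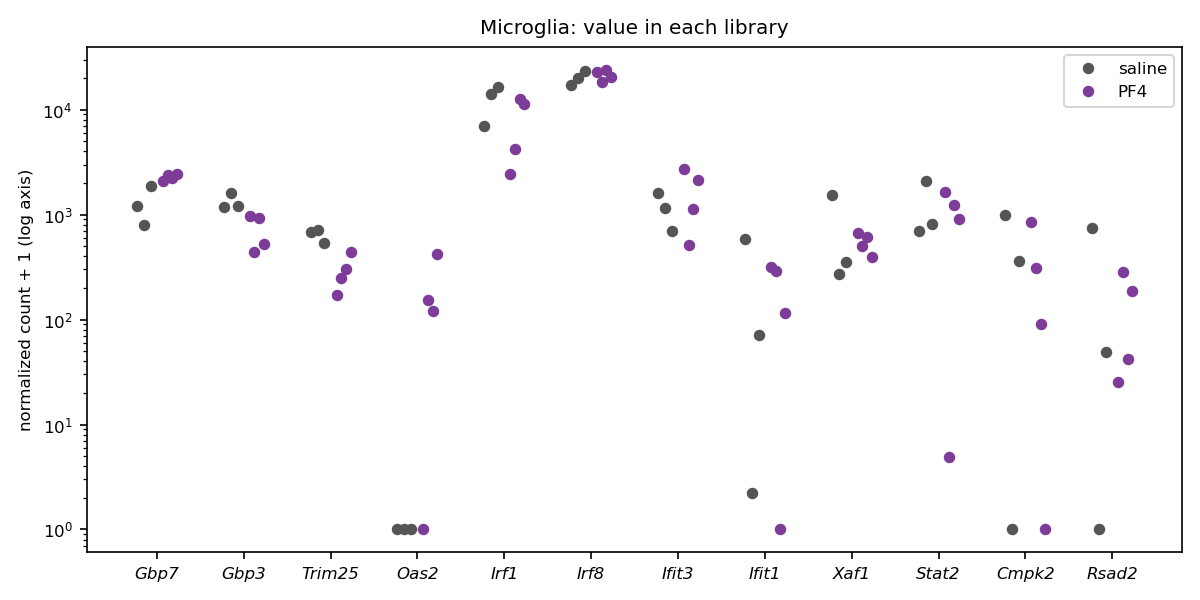
Normalized counts + 1 (vertical, log axis) of 12 members in each saline (grey, n = 3) and PF4 (purple, n = 4) microglia library, 1 point per library. Gbp7 lies higher and Gbp3 and Trim25 lower in all PF4 libraries, and points at the bottom of the axis are libraries with 0 reads.

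Zero counts were a feature of the microglia libraries as a whole. Of the 42 members tested there, 9 had at least 1 library with 0 reads (21.4%), as had 26.7% of all genes tested. There were 10 members, some of them among those 9, with a library of 3 reads or fewer beside one with a normalized count of 100 or more (23.8%), against 33.0% of all genes. None of the 37 members kept in hippocampus had a library at 0. Only Oasl1 and Mx1 were not tested in microglia.

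Markers of other cells moved between the microglia libraries. Summed endothelial and mural markers were at 78351 normalized counts in saline library 2, 22074 in saline library 3 and 9221 in saline library 4, and at 69245, 48169, 15082 and 10171 in PF4 libraries 1 to 4. All 11 of these markers had reads in some library of each group. Without the 3 libraries highest in them, the median log2 fold change of the members was 0.51, and without the 3 highest in choroid plexus markers it was 0.26. Each fit left 2 libraries per group, and 0 members passed in either. With so few libraries the 0 does not bear on marker content. Monocyte and neutrophil markers summed from 3135 to 6386 after saline and from 742 to 13449 after PF4. Border macrophage markers ran from 2585 to 8934 after saline and from 4306 to 12679 after PF4. Oligodendrocyte markers ran from 5599 to 34299 and from 4149 to 196699. The part of all these markers in the member values was not tested. Of the 87 further pathway genes tested in microglia, 0 passed. Ifi47, an interferon-gamma-inducible GTPase, was at 45.9, 0 and 53.6 normalized counts after saline and at 368, 304, 168 and 479 after PF4, with a limma P of 0.0297, and was named for its values.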

How the data were processed

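RNA was sequenced from whole hippocampus (17 libraries) and from hippocampal microglia (7 libraries), and samples were grouped by their deposited labels. The study's methods describe a modified Smart-Seq2 preparation with poly-dT priming, whereas the labels name a strand-specific poly(A) kit, so whether counting used strand is not settled. Per the labels, the authors used STAR and build mm10 for alignment, RSEM for counts and DESeq2 for normalization. The deposited signal per library is a count divided by 1 size factor, here called a normalized count. Within a library 100% of values were whole multiples of 1 step (tolerance 0.01), so whole reads were recovered for count-based alternatives. The authors also deposited, from their own comparisons, log2 fold changes with errors, a test score and p-values, which were not used here.

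Genes with a normalized count of at least 10 in 5 hippocampal or 3 microglia libraries were kept, and limma 3.58.1 (R 4.3.3) was run on log2(normalized count + 1), 2 groups at a time. This scale understates changes of low genes. Thresholds were an unadjusted P of 0.05 (hippocampus) and 0.01 (microglia), as in the study, with Benjamini-Hochberg adjusted p beside them. Single members were tested with an exact two-sided permutation test of group means. The scripts were tested on simulated data. The replicate numbers of the microglia libraries are not said to mark pairs.

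Members were given per-library values where they passed a threshold, with 1 further member per role, the one with the highest mean count in hippocampus. Others were named for values seen, namely Gbp7, Gbp3, Trim25, Oas2, Irf1, Irf8, Usp18, Ifih1, Oasl2, Irf9 and Ifi47. Members and lists were chosen with earlier results of these data known. The markers and pathway lists were matched by symbol. A pathway gene fixed in the design is not reported here. Merged exon lengths came from GENCODE M21. Alternatives were other pseudocounts (0.5 and 5), filters (none and 50), scalings, edgeR 4.0.16, DESeq2 1.42.0, 1 fit of all hippocampal groups, leaving out libraries, and a replicate block.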

Additional observations from a re-analysis of the deposited data

Results flagged for a closer look

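Single libraries stood apart within their group for 6 of 48 sets of values examined, by a gap that Dixon's test gives in about 1 in 20 sets by chance. Young plasma mouse 7150 accounted for 3 of them. It had 76.0 normalized counts of Xaf1, where the other 5 young plasma mice ran from 34.0 to 48.7. It had 371 of Cmpk2 where the others ran from 257 to 299.8, and 86.0 of Parp9 where the others ran from 39.8 to 51.5. Saline mouse 7152 had 67.8 normalized counts of Igtp, where the other saline mice ran from 83.4 to 88.6. Young platelet fraction mouse 7145 had 81.6 of Ddx58, where the others ran from 50.3 to 59.8. In microglia, PF4 library 3 had 279 normalized counts of Irf7, where the other 3 PF4 libraries ran from 664 to 690.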

How the results depend on the processing

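After young plasma DESeq2 added Usp18 to the members that rose, with an unadjusted P of 0.0477. The limma fit with no filter added Zbp1, too low for the main filter, with a P of 0.0289. The number of members that rose after young plasma was 1 with the filter at 50, where Xaf1 and Irf7 were too low to be tested. It was 0 without the 5 libraries that earlier results had set apart (saline 7146 and 7152, young plasma 7147 and 7150, young platelet fraction 7148). When 1 mouse at a time was left out it ran from 0 to 7. The median log2 fold change of the members was -0.01 without those 5 libraries. By mean member deviation they were the lowest saline, the highest young plasma and the lowest young platelet fraction mice. Fits without them are therefore not separate checks of the calls. In the young plasma comparison Ifit1 was also lost when all 3 groups were fitted together. After the young platelet fraction 2 to 3 rose with 1 mouse left out, and Ifit3 and Xaf1 passed in every fit with 1 mouse left out and without the 5 libraries. Between the treated groups, 3 members were higher without the 5 libraries (Bst2, Eif2ak2 and Irgm1), 1 was lower with edgeR and 1 with DESeq2, and leaving out 1 mouse gave 0 to 2 higher and 0 to 3 lower. In microglia DESeq2 called 1 member higher, Oas2, and leaving out 1 library gave 0 to 1, with Ifitm3 called without saline library 2, Gbp7 without saline library 4 and Oas2 without PF4 library 1. The medians with 1 library left out ran from 0.10 to 0.22 after young plasma, from 0.11 to 0.21 after the young platelet fraction and from -0.15 to 0.53 in microglia.

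With the replicate block on microglia libraries numbered 2, 3 and 4, 1 member was higher, Oas2, and without the block on the same libraries, a fit chosen after seeing the data, also 1. The deviations of same-numbered libraries from their group means correlated at 0.14, 0.06 and 0.03. With so few libraries per group these values cannot settle whether the numbers mark pairs. The 2 fits without libraries high in choroid plexus or endothelial markers were also chosen after seeing the data. Other pseudocounts and scalings left the counts of members that rose or fell within 1.5 times in all comparisons. Small groups limited all comparisons, and at this depth 7 members were too low to test in hippocampus in either comparison with saline.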
